A study of Homo sapiens with 6 samples.

Results

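Aminoacyl-tRNA synthetases attach each amino acid to its transfer RNA and so supply both the cytosolic and the mitochondrial ribosomes. In human cells most amino acids have a cytosolic enzyme and a separate nuclear-encoded enzyme that is imported into mitochondria, and by convention the gene of the imported enzyme carries a name ending in 2. Several cytosolic enzymes are held together with scaffold proteins in a multisynthetase complex, and many cytosolic synthetase genes are known as targets of ATF4, the transcription factor of the amino acid and integrated stress responses.

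The synthetases were taken from the count table by gene symbol: 35 genes were listed, 19 cytosolic and 16 mitochondrial, out of 30493 genes in the table. The data were RNA-seq libraries of A549, an established human lung adenocarcinoma cell line, made from mRNA captured on beads. One group of 3 libraries carried a knockdown of STAU1, the gene of a double-stranded RNA-binding protein that acts in mRNA transport, translation and decay, and the other group of 3 libraries is labelled as carrying a control plasmid. The knockdown titles carry the prefix si, the sources used here give neither the reagent nor the time after delivery, and all libraries come from the same cell line with no other treatment labelled. Whether libraries of 1 group are separate cultures is not labelled. The p-values therefore reflect the spread among these 6 libraries, and that spread may be technical.

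Libraries held between 30354219 and 35431441 counts. STAU1 had 16.02, 15.7 and 14.6 CPM (counts relative to the size of the library, scaled with TMM factors here and throughout) in the knockdown libraries, against 120.5, 124.5 and 117 CPM in the control libraries. Reads of the mitochondrial genome made up between 15.8% and 16.1% of counts in the knockdown libraries and between 17.3% and 17.9% in the controls. Of 5 epithelial markers 2 were called lower, 2 higher and 1 not at all, and the keratin genes KRT8 and KRT18 were abundant in both groups, with means of 3328 and 3028 CPM in knockdown libraries and 4371 and 4128 CPM in controls. Summed over the 8 alveolar markers there were 72 to 74 counts per knockdown library and 534 to 587 per control library. Of the 5 with enough counts to be tested 4, SFTPA1, SFTPA2, SFTPB and SLC34A2, were called lower, where 22% of all genes tested were. These 4 had 0 or 1 counts in each knockdown library and passed the filter on low counts only through the control libraries. Their calls therefore add nothing to the counts themselves. SFTPA1 and SFTPB, genes of surfactant proteins, were at 0 counts in every knockdown library. NAPSA was not called, with 60, 57 and 66 counts in knockdown libraries and 47, 59 and 67 in controls. SFTPC, too low to be tested, had 8, 4 and 3 counts in knockdown libraries and 5, 4 and 5 in controls. The 4 fibroblast markers in the table summed to 21.8 to 22.4 CPM in knockdown libraries and 10.6 to 10.7 CPM in controls, and the 3 endothelial markers to 1.66 to 2.53 CPM and 1.03 to 1.31 CPM. The 2 immune markers in the table summed to 15.8 to 18.2 CPM in knockdown libraries and 12.9 to 14.2 CPM in controls. Single genes carried these sums. COL1A1, LUM, CDH5 and CD14 were called higher, where 22.2% of all genes tested were. PECAM1 and CD68 were not called, and DCN, PDGFRB and VWF were too low to be tested. The part that these differences play in the synthetase results was not tested.

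Most cytosolic synthetase transcripts were lower in the knockdown libraries, by small amounts apart from the isoleucine enzyme gene IARS1, whose level was close to halved. Of the 19 cytosolic genes 15 fell, 1 rose and 3 had no call (median log2 fold change -0.13). Of the 15 mitochondrial genes with enough counts to be tested 5 fell and 1 rose, and 9 had no call (median -0.10). Calls required a Benjamini-Hochberg adjusted p below 0.05 over all 17089 tested genes, from the quasi-likelihood test of edgeR, and fold changes are knockdown minus control. By this rule 44.2% of all genes were called, 22.2% as higher and 22% as lower, and the median over all genes was close to 0, at -4e-04. The share of cytosolic synthetase genes called lower was 78.9% and that of tested mitochondrial ones 33.3%. Regardless of the call, the fold change was negative in 15 of the 19 cytosolic and 13 of the 15 mitochondrial genes, and in 8557 of all 17089. The standard error (SE) of the log2 fold change was 0.02 to 0.04 in cytosolic and 0.02 to 0.10 in mitochondrial genes. The 2 shares of calls therefore also differ in precision. Without each library in turn, 13 or 14 cytosolic and 4 to 6 mitochondrial genes were lower.

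These counts differed between some of the settings. With RLE or upper-quartile scaling 15 cytosolic and 5 mitochondrial genes were lower, as with TMM. With total-count scaling 9 cytosolic genes were lower and 4 higher, where 2407 of all 17089 genes tested were lower and 5473 higher. On the authors' FPKM values, where the unit, the log2 transform and the test changed as well, 7 were lower and 4 higher, with 1 lower and 2 higher mitochondrial genes. Of all 17088 genes tested on FPKM, 1552 were lower and 5276 higher on log2(FPKM + 1), and 1554 and 5262 on log2(FPKM + 0.1). With total counts and on FPKM the whole distribution of fold changes moved up. The shift was 0.08 with total-count scaling and 0.05 and 0.10 on log2(FPKM + 1) and log2(FPKM + 0.1). Falls of 7 cytosolic genes, IARS1, MARS1, YARS1, TARS1, FARSA, FARSB and WARS1, and of 1 mitochondrial gene, MARS2, were called under all 16 other settings. Over all genes, 37.2% of the falls were called under all of them, against 46.7% of the cytosolic and 20% of the 5 mitochondrial synthetase falls.

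**Figure D1:**
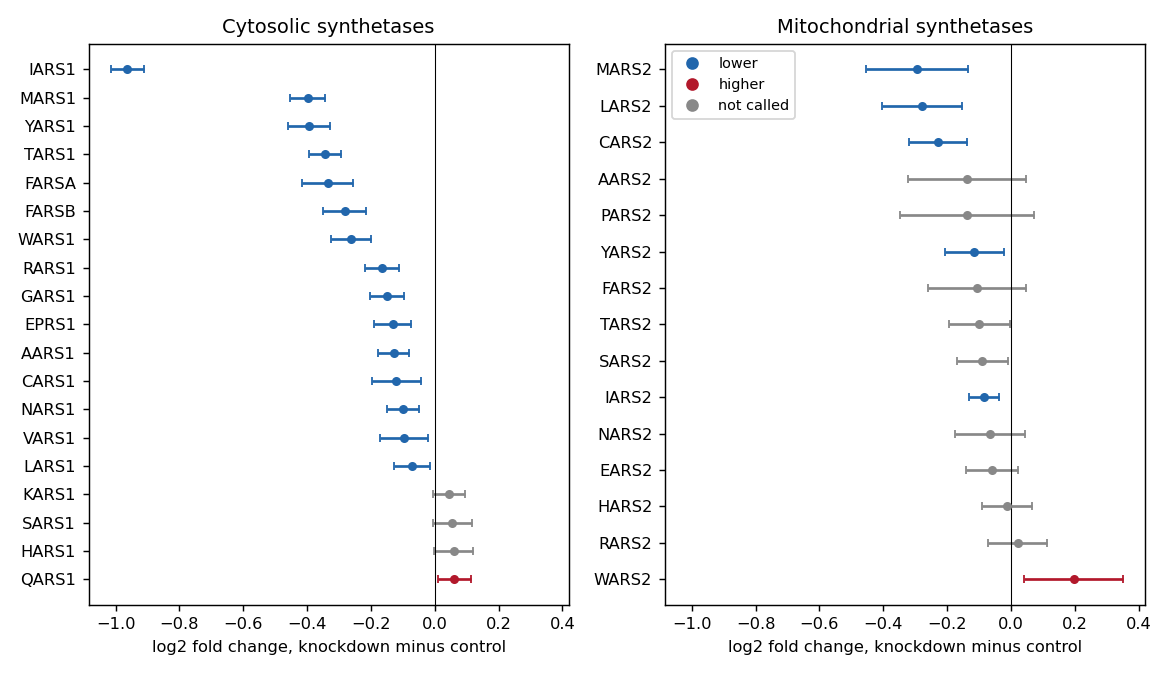
Log2 fold changes (knockdown minus control, horizontal axis) of the 19 cytosolic and 15 tested mitochondrial synthetase genes, with 95% intervals as bars and the colour giving the call. IARS1 stands apart at -0.96, and most other genes lie between -0.4 and 0.1.

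The C/EBP-ATF response element, the motif that ATF4 is known to bind with a C/EBP partner, was looked up in the promoters because the synthetases known as ATF4 targets make up most of the cytosolic genes. It was searched as TGATGNAA on both strands in RefSeq promoters (GRCh38.p14) reaching from 250 bases before to 50 after a gene's start, and 30 of the 35 synthetase genes had such a promoter. The remaining genes were LARS1, VARS1, YARS1, AARS2 and VARS2. The motif was present in 7 of 16 cytosolic genes and 1 of 14 mitochondrial genes, and in 3.62% of all 35116 promoters, or 4.46% of the 27305 genes that have one. Most of the cytosolic matches were on the strand opposite to the gene and close to its start. The windows below show every match, 30 bases read on the strand of the gene, with the motif in capitals.
IARS1 (chr9:92293692-92293721, minus strand): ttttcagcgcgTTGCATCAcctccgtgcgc
MARS1 (chr12:57488053-57488082, plus strand): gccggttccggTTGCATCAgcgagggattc
TARS1 (chr5:33440956-33440985, plus strand): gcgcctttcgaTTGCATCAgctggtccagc
GARS1 (chr7:30594834-30594863, plus strand): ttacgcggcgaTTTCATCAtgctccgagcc
AARS1 (chr16:70289675-70289704, minus strand): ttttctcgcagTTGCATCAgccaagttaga
CARS1 (chr11:3057407-3057436, minus strand): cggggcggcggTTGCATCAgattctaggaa
NARS1 (chr18:57621804-57621833, minus strand): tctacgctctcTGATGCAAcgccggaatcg
YARS2 (chr12:32756076-32756105, minus strand): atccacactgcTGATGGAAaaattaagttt

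Those 7 cytosolic genes spanned log2 fold changes from -0.96 in IARS1 to -0.10 in NARS1, with a median of -0.15. The 9 cytosolic genes whose promoter held no match spanned -0.34 in FARSA to 0.06 in QARS1, with a median of -0.13. A match is a description of the letters in this window and not a binding site, and the ranges of the 2 sets overlapped between -0.34 and -0.10.

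IARS1 encodes the cytosolic isoleucyl-tRNA synthetase, a member of the multisynthetase complex. It lies on chromosome 9, 92210207 to 92293756, minus strand (GRCh38, GENCODE 29), and none of its exon bases is shared with another annotated gene. Its level was 94.8, 101.5 and 97.8 CPM in the knockdown libraries, against 191.5, 191 and 191.1 CPM in the control libraries. The groups were far apart relative to their spread, with means of 98.1 ± 3.37 CPM in knockdown and 191.2 ± 0.299 CPM in control (SD, n = 3 each). The log2 fold change was -0.96 (SE 0.03, 95% interval -1.02 to -0.91), and the quasi-likelihood test of edgeR gave an adjusted p of 2.46e-32. Across the settings it ranged from -0.99 to -0.71, the smallest size coming from log2(FPKM + 1), a scale that understates changes of low values. Of the 988 genes with a mean level at least as high as that of IARS1, 1 had a lower fold change, and over all 17089 tested genes 111 did. The typical fall was much smaller, with a median of -0.24 among all genes called lower.

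IARS2, the gene of the mitochondrial isoleucyl enzyme, changed little. It had 186.4, 189.4 and 189.9 CPM in knockdown libraries, against 199.5, 201.7 and 198.5 CPM in controls. The groups did not overlap, as in 51.4% of all genes tested. The fall was called, at -0.08 (SE 0.02, adjusted p = 0.00194 by edgeR, quasi-likelihood). This call was lost with total-count scaling and on both FPKM scales, where the value was 0.025. The log2 ratio of IARS1 to IARS2, which is free of any scaling between libraries, averaged -0.94 ± 0.04 in knockdown and -0.06 ± 0.01 in control libraries (SD, n = 3 each).

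The next largest falls were a group of 4 cytosolic genes between -0.40 and -0.34. MARS1, the gene of the methionyl enzyme, which charges both initiator and elongator transfer RNA, had 96.7, 101.7 and 99.5 CPM in knockdown libraries, against 131.9, 129.7 and 131.2 CPM in controls. Its log2 fold change was -0.40 (SE 0.03). In GENCODE 29, 13.3% of its exon bases are also covered by other genes, among them DDIT3 on the opposite strand, which had only 9.65 CPM in knockdown and 9.49 CPM in control libraries. YARS1, the gene of the tyrosyl enzyme, had 67.9, 71.7 and 66.7 CPM in knockdown libraries, against 93.2, 88.5 and 89.3 CPM in controls (-0.40, SE 0.03). TARS1, the gene of the threonyl enzyme, had 146.7, 149.6 and 146.7 CPM in knockdown libraries, against 186.2, 192.3 and 183.6 CPM in controls (-0.34, SE 0.02). In each of these 3 genes every knockdown library lay below every control library by several times the spread within a group.

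FARSA and FARSB encode the alpha and beta subunits of the cytosolic phenylalanyl enzyme, and both fell to a similar degree. FARSA had 48.4, 43.8 and 47.5 CPM in knockdown libraries, against 56.7, 60.1 and 59.6 CPM in controls (-0.34, SE 0.04, 95% interval -0.41 to -0.26). FARSB had 59.9, 61.4 and 59.9 CPM in knockdown libraries, against 72.7, 75.7 and 72.0 CPM in controls (-0.28, SE 0.03, 95% interval -0.35 to -0.21). The intervals of the subunits overlapped. FARS2, the single-chain mitochondrial enzyme, was not called, at -0.11 with an interval of -0.26 to 0.05. WARS1, the gene of the tryptophanyl enzyme, which is also known to be induced by interferon, had 72.4, 74.1 and 71.1 CPM in knockdown libraries, against 87.3, 86.1 and 87.5 CPM in controls (-0.26, SE 0.03). Adjusted p for these 7 leading cytosolic falls lay between 2.46e-32 for IARS1 and 1.18e-09 for FARSB in edgeR's quasi-likelihood test.

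**Figure D2:**
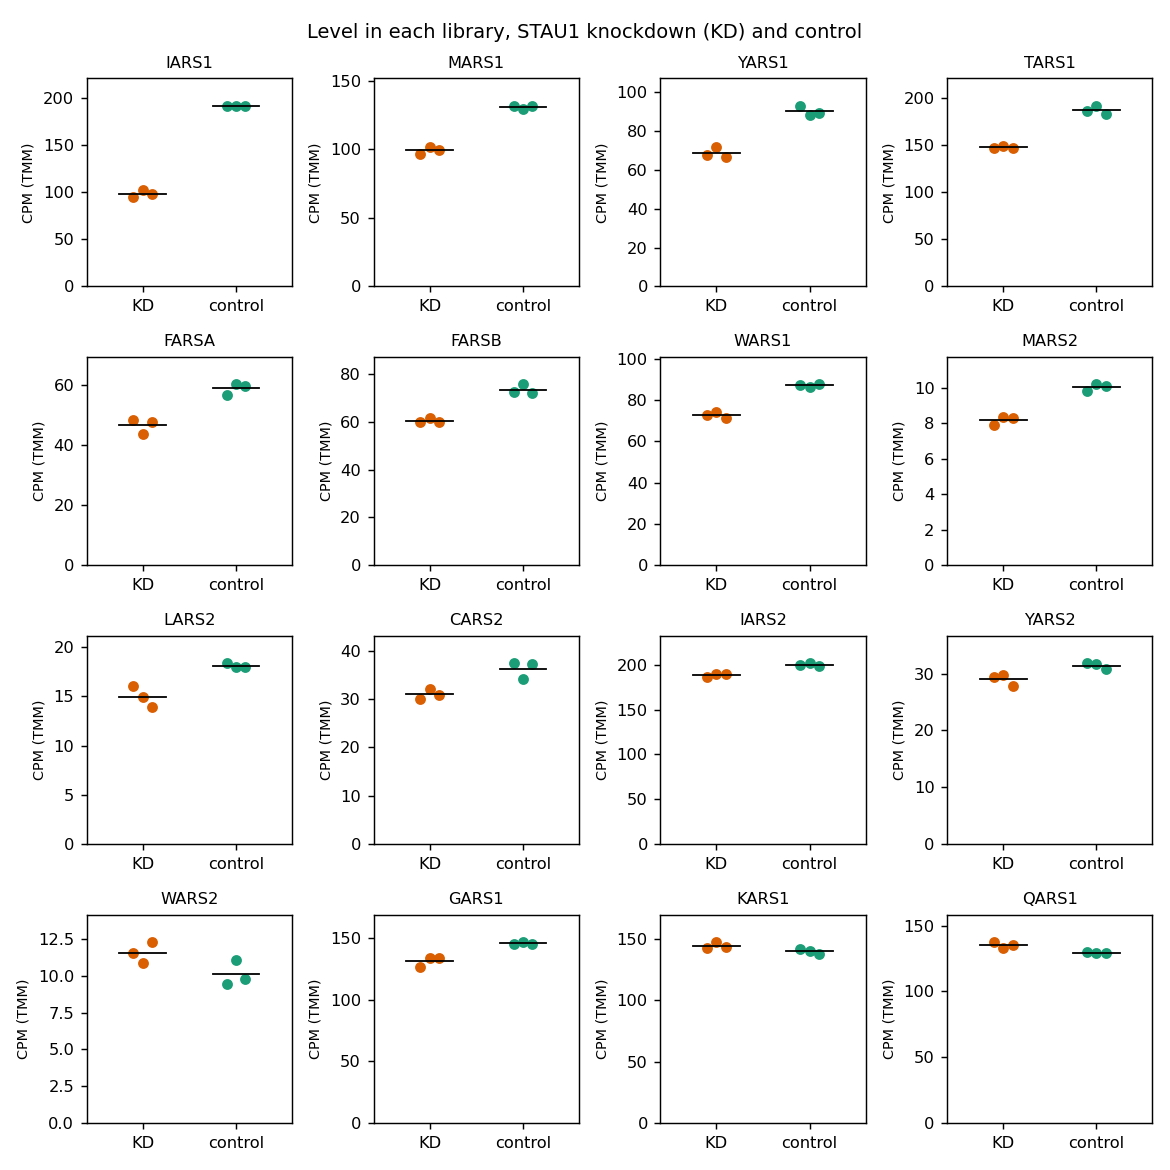
CPM (TMM-scaled, linear axis from 0) in each of the 3 knockdown (KD) and 3 control libraries for 16 synthetase genes, with points for libraries and a line for the group mean. IARS1 shows the widest gap between the groups, while KARS1 and QARS1 show means that differ by a few percent.

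The other 8 cytosolic falls were small. RARS1 had -0.17, GARS1 -0.15, EPRS1 and AARS1 -0.13, CARS1 -0.12, NARS1 and VARS1 -0.10 and LARS1 -0.07 on the log2 scale. EPRS1 encodes the fused glutamyl and prolyl enzyme, and the others the arginyl, glycyl, alanyl, cysteinyl, asparaginyl, valyl and leucyl enzymes. All but VARS1 had groups that did not overlap, as had 51.4% of all genes tested. With total-count scaling the calls of AARS1, CARS1, EPRS1, NARS1 and VARS1 were lost and LARS1 changed sign to 0.0069. On both FPKM scales none of the 8 was called, RARS1 and GARS1 included (adjusted p of 0.12 to 0.493 for these in limma). LARS1 and VARS1 were also not called with DESeq2 (adjusted p of 0.0941 and 0.109) or without the low-count filter (0.103 and 0.051 by edgeR, quasi-likelihood). LARS1 also lost its call without control replicate 2 or 3 or knockdown replicate 1 or 3 (adjusted p = 0.0788, 0.134, 0.111 and 0.121 by edgeR, quasi-likelihood). VARS1 lost its call without control replicate 1 or 3 or knockdown replicate 1 or 2 (adjusted p of 0.138, 0.212, 0.136 and 0.165), and CARS1 without control replicate 1 or 2 (0.0512 and 0.0532).

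GARS1, KARS1 and QARS1 have no partner among the mitochondrial genes. GARS1 and KARS1 are known to encode both the cytosolic and the mitochondrial form of the glycyl and lysyl enzymes, and mitochondria form glutaminyl-tRNA by amidation of glutamyl-tRNA instead of with a glutaminyl enzyme. GARS1 had 126.6, 134.1 and 133.4 CPM in knockdown libraries, against 145.3, 146.7 and 145.4 CPM in controls. KARS1 had 142.9, 147.3 and 143.3 CPM in knockdown libraries, against 142.1, 140.2 and 138.0 CPM in controls, and was not called (0.04, 95% interval -0.01 to 0.10). QARS1 had 137.5, 132.8 and 135.3 CPM in knockdown libraries, against 130.3, 129.4 and 129.0 CPM in controls. It was the 1 cytosolic gene called higher (0.06, SE 0.03, adjusted p = 0.0461 by edgeR, quasi-likelihood), and the call was lost under 11 of the 16 other settings. The serine and histidine enzyme genes SARS1 and HARS1 were not called either, at 0.05 and 0.06, with intervals of -0.01 to 0.12 and of -0.0018 to 0.12. KARS1, SARS1, HARS1 and QARS1 were all called higher with total-count scaling and on both FPKM scales, at 0.12 to 0.17. In these settings 5473 of 17089 genes and 5276 and 5262 of 17088 genes were called higher.

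By place in the cell, the 7 synthetase genes of the multisynthetase complex (EPRS1, IARS1, KARS1, LARS1, MARS1, QARS1 and RARS1) comprised 5 that fell, 1 that rose and 1 not called, with a median of -0.13. The 12 cytosolic genes outside the complex comprised 10 that fell and 2 not called, with a median of -0.14. Among all genes tested 22% were called lower and 22.2% higher. Of its 3 scaffold genes AIMP2 fell, with 46.2, 44.4 and 44.9 CPM in knockdown libraries against 58.5, 54.3 and 57.9 CPM in controls (-0.33, SE 0.04). EEF1E1, also known as AIMP3, fell as well, with 21.5, 21.6 and 22.5 CPM in knockdown libraries against 26.0, 27.1 and 27.8 CPM in controls (-0.30, SE 0.05). AIMP1, the scaffold protein that is also known as the precursor of a cytokine, was not called, at -0.05. By catalytic fold, 9 of 10 genes of class I enzymes fell and 1 rose, and 6 of 9 genes of class II enzymes fell and 3 were not called, with EPRS1, which holds an enzyme of each class, counted in class I.

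Of the 13 synthetase genes known as ATF4 targets 12 fell, and SARS1 was not called, where 22% of all genes tested were called lower and 22.2% higher. Of the other 6, FARSA, FARSB and RARS1 fell, QARS1 rose, and HARS1 and KARS1 were not called. ATF4 itself had 221.6, 228.7 and 239.8 CPM in knockdown libraries, against 279.7, 283.2 and 270.0 CPM in controls (-0.27, SE 0.02). A list of 18 genes, ATF4 and targets other than synthetases, did not move one way, with 10 genes higher, 7 lower and 1 not called. SLC7A5, the gene of a large neutral amino acid transporter that carries isoleucine, rose to 786.2 ± 12.3 CPM in knockdown libraries, against 562 ± 3.29 CPM in controls (0.48, SE 0.02). TRIB3, the gene of a pseudokinase, rose by 0.58, and PSAT1, the gene of an enzyme of serine synthesis, was called lower at -0.43. ASNS, the asparagine synthetase gene, was chosen after its values were seen and was called lower too, with 33.6 ± 2.70 CPM in knockdown and 50.1 ± 1.43 CPM in control libraries (-0.58, SE 0.04).

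Among mitochondrial synthetases the larger falls were those of MARS2, LARS2 and CARS2. MARS2, the methionyl enzyme gene, had 7.90, 8.36 and 8.27 CPM in knockdown libraries, against 9.80, 10.2 and 10.1 CPM in controls (-0.29, SE 0.08, adjusted p = 0.00193 by edgeR, quasi-likelihood). LARS2, the leucyl enzyme gene, had 16.1, 14.9 and 13.9 CPM in knockdown libraries, against 18.4, 18.0 and 18.0 CPM in controls (-0.28, SE 0.06). CARS2, the cysteinyl enzyme gene, had 29.97, 32.2 and 30.8 CPM in knockdown libraries, against 37.4, 34.2 and 37.2 CPM in controls (-0.23, SE 0.05). In all 3 genes the groups did not overlap, as in 51.4% of all genes tested. The calls of LARS2 and CARS2 were lost on both FPKM scales (adjusted p of 0.107 to 0.158 in limma).

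YARS2, the tyrosyl enzyme gene, had 29.4, 29.8 and 27.9 CPM in knockdown libraries, against 31.8, 31.6 and 30.8 CPM in controls (-0.12, SE 0.05, adjusted p = 0.0368 by edgeR, quasi-likelihood). Its call ended under 9 of the 16 other settings, among them DESeq2 (adjusted p = 0.124). WARS2, the tryptophanyl enzyme gene, was the 1 mitochondrial gene called higher, with 11.5, 10.8 and 12.3 CPM in knockdown libraries, against 9.41, 11.1 and 9.80 CPM in controls (0.20, SE 0.08, adjusted p = 0.0333). Its groups overlapped, since control replicate 2 lay above knockdown replicate 2, and the call was lost with DESeq2 (adjusted p = 0.133) and without control replicate 1 or 3 or knockdown replicate 1 or 3 (adjusted p of 0.173, 0.111, 0.0566 and 0.177 in edgeR's quasi-likelihood test).

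The other tested mitochondrial genes were AARS2, EARS2, FARS2, HARS2, NARS2, PARS2, RARS2, SARS2 and TARS2, and with all 6 libraries none was called by edgeR's quasi-likelihood test. The same test called 3 of them lower when 1 library was left out. AARS2 was called without control replicate 3 (-0.25, adjusted p = 0.0222) and FARS2 without knockdown replicate 3 (-0.20, adjusted p = 0.0441). SARS2 was called without control replicate 1 or knockdown replicate 3 (adjusted p of 0.0262 and 0.0428). With all libraries the values of the 9 genes lay between -0.14 for AARS2 and 0.02 for RARS2, and 2 of them, SARS2 and TARS2, had an unadjusted p under 0.05. By catalytic fold, 5 of the 8 tested mitochondrial genes of class I enzymes fell and 1 rose, and none of the 7 of class II enzymes was called. The share called over all genes tested was 44.2%. The precision differed among the genes without a call. The 95% interval of HARS2 reached from -0.09 to 0.07, while that of PARS2, with 170, 179 and 175 counts in knockdown libraries and 175, 175 and 193 in controls, reached from -0.35 to 0.07. VARS2, the valyl enzyme gene, had 9, 9 and 12 counts in knockdown libraries against 8, 7 and 7 in controls and did not pass the filter on low counts. In GENCODE 29, 22% of the exon bases of VARS2 are shared with GTF2H4 on the same strand, and 57% of those of SARS2 with other genes, so the values of both are uncertain.

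**Figure D3:**
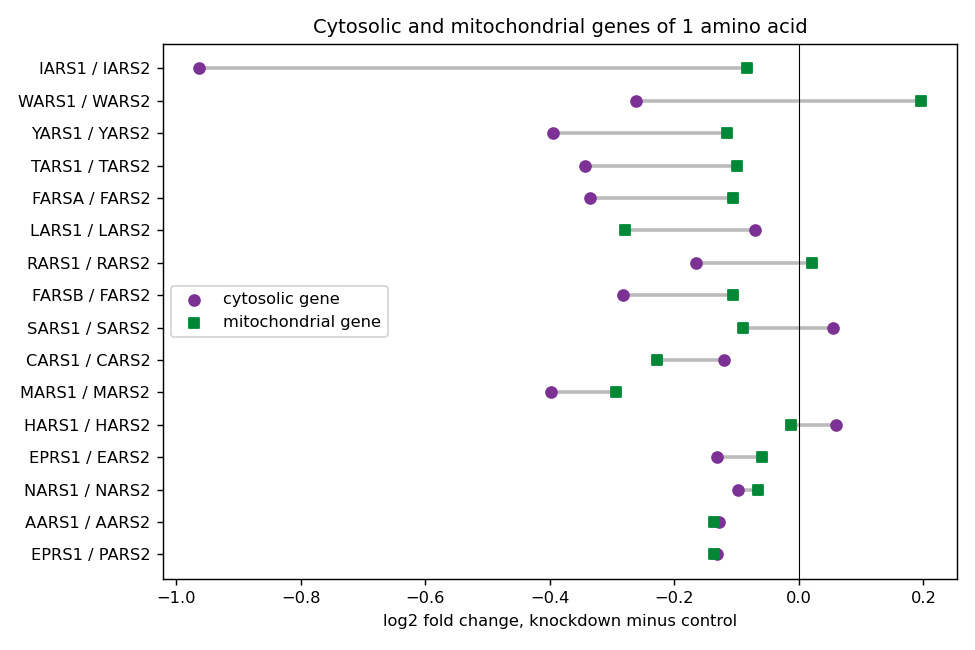
Log2 fold changes (knockdown minus control) of the cytosolic gene (circle) and the mitochondrial gene (square) for the 16 tested pairs of 1 amino acid, ordered by the size of the difference. The cytosolic gene lies to the left of the mitochondrial one in 10 of the 16 pairs, with the widest gap for isoleucine.

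Cytosolic and mitochondrial genes for the same amino acid, both of them tested, formed 16 pairs, counting both FARSA and FARSB with FARS2 and the fused EPRS1 with EARS2 and PARS2. The valine pair was left out of these counts because VARS2 did not pass the filter on low counts. Both genes were called lower in 5 pairs, for isoleucine, tyrosine, leucine, cysteine and methionine. In 1 pair, for tryptophan, the cytosolic gene fell and the mitochondrial gene was called higher. The fold change of the cytosolic gene was the lower one in 10 pairs and the higher one in 6. The leucine pair was the clearest case of the second kind, with -0.07 for LARS1 and -0.28 for LARS2.

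The log2 ratio of the cytosolic to the mitochondrial gene within a library shows the same pairs without scaling between libraries. For tryptophan it was 2.65 ± 0.12 in knockdown and 3.11 ± 0.13 in control libraries, and for tyrosine 1.24 ± 0.03 and 1.52 ± 0.04 (SD, n = 3 each). For threonine it was 2.46 ± 0.05 in knockdown and 2.70 ± 0.06 in control libraries, with TARS2 at 27.7, 27.0 and 26.1 CPM in knockdown libraries and 28.8, 28.2 and 29.4 CPM in controls. The ratios of knockdown and control libraries did not overlap in 8 of the 16 pairs. Among single genes the groups did not overlap in 51.4% of all genes tested, and ratios of other gene pairs were not computed. With 3 libraries against 3, the smallest p of a two-sided exact permutation test is 0.1, which these 8 pairs reached, and 0.2 after Benjamini-Hochberg adjustment over the 16 pairs. No difference between partners can therefore pass a threshold of 0.05 by this test.

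HARS1 and HARS2 lie head to head on chromosome 5, with RefSeq start sites at 140691370 and 140691455, 85 bases apart (GRCh38.p14). HARS1 had 86.3, 83.0 and 84.3 CPM in knockdown libraries, against 81.4, 79.9 and 82.0 CPM in controls. HARS2 had 48.5, 45.8 and 47.9 CPM in knockdown libraries, against 48.2, 49.2 and 46.2 CPM in controls. Neither was called, and in GENCODE 29 their exons overlap on opposite strands over 437 bases, so reads there can be assigned only by strand. The library kit was directional per the labels' protocols, but the strand setting of the counting is not stated in them. A protein-coding neighbour starting on the opposite strand within 1000 bases was annotated for 10 of the 35 genes. No member other than SARS2 and HARS2 shared any stretch of 75 bases of its longest coding transcript with another gene's transcripts.

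Summed over the list, the 19 cytosolic genes took 1907, 1927 and 1911 CPM in knockdown libraries, against 2204, 2205 and 2197 CPM in controls, a mean 13.0% lower. Without IARS1 the sum was 1817 ± 7.58 CPM in knockdown and 2011 ± 4.55 CPM in control libraries (SD, n = 3 each). The 16 mitochondrial genes summed to 516.1, 514.5 and 517.6 CPM in knockdown libraries, against 548.4, 553.8 and 542.4 CPM in controls. The ratio of the cytosolic to the mitochondrial sum was 3.71 ± 0.03 in knockdown and 4.02 ± 0.03 in control libraries. Part of that difference comes from IARS1, since the cytosolic sum without it was 9.6% lower in knockdown and the mitochondrial sum 5.9% lower. As a share of all counts, without TMM scaling, the cytosolic sum was 0.197% in knockdown and 0.214% in control libraries and the mitochondrial sum 0.0530% and 0.0533%. In bulk libraries a change in RNA per cell and a change in the mix of cells cannot be told apart.

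Levels of different genes were compared as CPM per kilobase of the longest coding transcript in GENCODE 29. The authors' FPKM was not used for this, because the gene length it implies is over 1.5 times the exon length in GENCODE 29, both taken relative to YARS2, for 7 members, up to 4.19 times for GARS1 and 3.04 times for IARS1. On this scale cytosolic genes in control libraries lay between 14.2 for VARS1 and 63.3 for RARS1. Mitochondrial genes mostly lay lower, between 2.47 for PARS2 and 22.6 for SARS2, whose value is uncertain, apart from IARS2 at 56.2 and VARS2 at 0.0578. The 2 ranges overlapped, since CARS2 at 19.3, HARS2 at 19.1, RARS2 at 16.2 and YARS2 at 14.8 lay above VARS1. CARS2 also lay above its partner CARS1 at 18.1. IARS1 was at 21.1 CPM per kilobase in knockdown and 41.1 in control libraries. IARS2 was at 53.0 and 56.2.

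**Figure D4:**
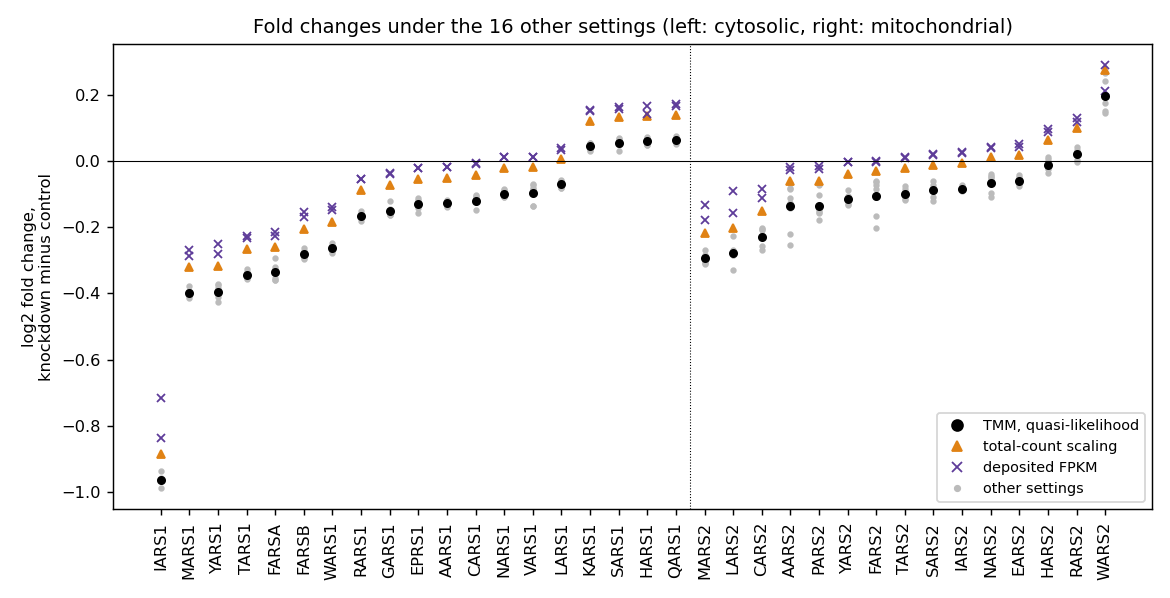
Log2 fold change (knockdown minus control, vertical axis) of each tested synthetase gene with TMM scaling and the quasi-likelihood test and under the 16 other settings. Values with total-count scaling and on the deposited FPKM mostly lie above the others, and several small falls cross 0 there, while IARS1 stays between -0.99 and -0.71.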

How the data were processed

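The authors deposited whole-number read counts per gene and FPKM values rounded to 2 decimals, with 1 column per library, named as the sample titles. HISAT2, DESeq2 and the build GRCh38 are named, per the submitters' processing notes, with no role or version. The libraries were directional, per the labels' protocols. The counting tool, annotation and strand setting are not stated in them, so reads of overlapping genes may not be separated. Counts were tested with edgeR 4.0.16 (limma 3.58.1, R 4.3.3): filterByExpr with a minimum count of 10, TMM scaling and the robust quasi-likelihood test over all 6 libraries, with no covariate. The SE of a log2 fold change is its size over the square root of F. The common dispersion corresponded to a coefficient of variation of 2.61% between libraries, and replicate pairs differed by more than sampling noise (chi-square per degree of freedom 1.78 to 2.88). Identifiers were matched to GENCODE 29 (all 35 members), and promoter sequences are from RefSeq (GRCh38.p14). The script was tested on simulated counts.

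The members and lists were chosen with earlier results of these data known. All members are named. Values in every library are given for the 6 called members of each compartment with the largest fold changes, the 4 pairs of 1 amino acid that differ most, GARS1, KARS1, QARS1, FARSA and FARSB. Other genes come from lists of complex scaffolds, ATF4 targets, mitochondrial translation, transfer RNA handling and cell type markers, and 1 list of 3 other synthetase genes is not reported here. Alternatives were scaling by RLE, by upper quartile or by total counts, testing unfiltered genes or those with 1 CPM in 3 libraries, DESeq2 1.42.0, limma-voom, limma-trend on FPKM with a pseudocount of 1 or 0.1 before taking log2, the replicate number as a block, and leaving out each library.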

Additional observations from a re-analysis of the deposited data

How the results depend on the processing

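Total-count scaling and the FPKM values, which also changed the unit, the transform and the test, moved the counts most among the settings run. With total-count scaling 2407 genes were lower instead of 3759, and 5473 higher instead of 3801. There 9 cytosolic synthetase genes were lower and 4 higher, and 3 mitochondrial ones were lower and 1 higher, with medians of -0.054 and -0.022. On log2(FPKM + 1) and log2(FPKM + 0.1) 1552 and 1554 genes were lower and 5276 and 5262 higher. Both scales had 7 lower and 4 higher cytosolic and 1 lower and 2 higher mitochondrial genes. Medians were -0.020 and -0.021 for cytosolic and 0.010 and 0.012 for mitochondrial genes. Of all calls 50.3% were higher with TMM scaling, 69.5% with total counts and 77.3% and 77.2% on FPKM. LARS1 changed sign to 0.0069 with total counts and to 0.032 and 0.039 on FPKM, NARS1 to 0.011, VARS1 to 0.011 and 0.012 and IARS2 to 0.025 on both FPKM scales. QARS1 was not called with RLE or upper-quartile scaling, without the low-count filter, with limma-voom, DESeq2 or the replicate block, leaving 0 cytosolic genes higher. In these settings 1 cytosolic gene had an unadjusted p under 0.05 and a positive fold change, except 0 with DESeq2, which also called 0 mitochondrial genes higher, with 0 at an unadjusted p under 0.05. Leaving out each library gave 0 or 1 cytosolic and 0 or 1 mitochondrial genes higher (0 to 3 and 0 to 1 at an unadjusted p under 0.05), 13 to 14 and 4 to 6 lower, and medians of -0.16 to -0.13 and -0.10 to -0.084. The cause of these changes was not tested. Deviations of libraries from their group mean correlated at 0.068, 0.037 and 0.15 for knockdown and control libraries with the same replicate number. For different numbers the correlations lay between -0.11 and 0.046. These values are small and do not settle whether the number pairs the libraries. The main test did not pair them, and the replicate block did. Among the tested synthetase genes the replicate block changed the call of QARS1 only (adjusted p = 0.0531 by edgeR, quasi-likelihood). The CPM filter changed no member's call. Members with few counts, such as AARS2, MARS2, PARS2 and WARS2, have the widest intervals.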

Other observations

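By the rule that called 22% of all tested genes lower and 22.2% higher, genes that act beside the mitochondrial synthetases gave the following counts. Of 4 genes of mitochondrial tRNA amidation and formylation 2 fell in edgeR's quasi-likelihood test. QRSL1, the catalytic subunit of the amidotransferase that makes glutaminyl-tRNA, averaged 21.0 CPM in knockdown and 25.8 CPM in control libraries (log2 fold change -0.29, SE 0.05), and the subunit gene GATC had -0.11. GATB, the other subunit, and MTFMT, the methionyl-tRNA formyltransferase, were not called, at -0.08 and 0.02. Of 9 tested mitochondrial translation factors 2 fell and 7 were not called, with the elongation factor gene TUFM at -0.21 (SE 0.02) and MTRF1L, a release factor gene, at -0.16 (SE 0.06), and GFM1, another elongation factor gene, without a call at -0.07.

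Of 6 genes of trans-editing and peptidyl-tRNA hydrolysis 4 fell, 1 rose and 1 was not called. DTD1, a D-aminoacyl-tRNA deacylase, averaged 31.6 CPM in knockdown and 37.1 CPM in control libraries (-0.23, SE 0.04), PTRH2 had -0.17, and PTRHD1 rose by 0.21. Of 5 genes of transfer RNA export and delivery 3 fell and 2 were not called. XPOT, the nuclear export receptor of transfer RNA, averaged 99.3 CPM in knockdown and 123.4 CPM in control libraries (-0.31, SE 0.03). The elongation factor subunit genes EEF1G and EEF1B2 had -0.18 and -0.16, while EEF1A1, which delivers aminoacyl-tRNA to the ribosome, and EEF1D, a subunit of its exchange factor, were not called, at -0.01 and 0.04.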
